A study of Mus musculus with 2 samples.

Results

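The core circadian clock genes of mouse cardiac myofibroblasts were examined in the deposited RNA-seq data. They were taken as the rows of the gene tables whose symbol is *Per1*, *Per2*, *Per3*, *Cry1*, *Cry2*, *Arntl* (also called *Bmal1*), *Clock*, *Nr1d1*, *Nr1d2* or *Dbp*, which gave 10 of the 24532 genes listed. The rule uses no measured value. Both groups were CD45-negative cells that adhered to plastic, isolated from the hearts of C57BL/6 mice (C57BL/6J for isolated myofibroblasts, per the study's methods) 3 days after myocardial infarction (MI) by permanent coronary occlusion and cultured in medium with serum. Cells were transfected with 12.5 nM of a control siRNA (siCtrl) or with 12.5 nM of an siRNA against the transcription cofactor gene *Vgll3* (si*Vgll3*), and RNA was collected 72 h later. The methods give male mice of 8 to 10 weeks for this infarction model. The number of animals behind each library and the time of day are not given in the sources used here. There was 1 library per condition, so no difference has a replicate check, no p-value is given, and the culture and the siRNA cannot be told apart. Because clock transcripts cycle, a shift of phase and a shift of mean level cannot be told apart from a single time point either. In such bulk RNA, fewer cells of a type and less RNA per cell also cannot be told apart.

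The clock is a transcriptional feedback loop that runs in most cells, fibroblasts of the heart and other organs included. A heterodimer of ARNTL and CLOCK binds E-boxes and switches on the *Per* and *Cry* genes, whose proteins return to the nucleus and repress it. In a second loop the same heterodimer induces the nuclear receptors REV-ERBα (*Nr1d1*) and REV-ERBβ (*Nr1d2*), which repress *Arntl* and *Clock*, while DBP carries the rhythm to target genes through D-boxes. In cultured fibroblasts the clocks of single cells can be set in step by serum, glucocorticoids or cAMP and afterwards drift apart.

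*Vgll3* itself was at 41.6% of the siCtrl level, at 202 TPM with the control siRNA and 84.0 TPM after knockdown. TPM is the level of a gene's transcripts scaled for gene length and library size. The siCtrl library held 140815237 counted reads and the si*Vgll3* library 125789276. Myofibroblast and fibroblast markers (*Acta2*, *Tagln*, *Postn*, *Col1a1*, *Col1a2*, *Thy1* and *Pdgfra*) had reads for 7 of 7 and summed to 15677 TPM with the control siRNA and 13066 TPM after knockdown. Of these 7, *Postn*, *Col1a1* and *Col1a2* were lower and *Tagln* and *Thy1* higher by the rule given in the next paragraph. The leukocyte markers *Ptprc*, the gene of CD45, and *Adgre1* had 0 reads in both libraries, where a count of 0 allows up to 3 reads. *Cd68* had 97 reads in siCtrl and 84 after knockdown. *Csf1r* had 320 and 419 reads, an M of 0.504, and was higher by the same rule. The 4 leukocyte markers together came to 2.50 and 2.97 TPM. The 4 endothelial markers summed to 23.8 and 19.5 TPM, of which *Tek* alone made up 19.5 and 13.4 TPM. The other endothelial markers had an M above 0, 0.47 for *Pecam1*, 0.50 for *Cdh5* and 0.97 for *Kdr*, which was below the cut-off on A. The 3 pericyte markers summed to 0.519 and 0.482 TPM. Of 5 cardiomyocyte markers, *Myh6*, *Actn2* and *Ryr2* had 0 reads in both libraries, *Tnni3* had 0 and 10 reads, and *Tnnt2* had 4574 reads in siCtrl against 733 after knockdown. The part of any of these cell types in the clock gene values was not tested.

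In si*Vgll3*, *Per3* was at 48.8% of its siCtrl level and *Dbp* at 53.3%, while the other clock genes lay between 78.8% and 127%. For each gene, M is log2 of the si*Vgll3* TPM divided by the siCtrl TPM, and A is log2 of the average of both TPM values. A gene is described as lower when M < −0.5 with A > 0, the cut-offs that the study used, and as higher when M > 0.5 with A > 0. The study states no formula for A, so the definition used here, and the counts that follow from it, may differ from those of the study. By this rule 2 of the 10 clock genes were lower and 0 were higher. Of all 11754 genes with A > 0, 11.4% were lower and 5.73% were higher. The median M of the clock genes was −0.26, beside −0.05 for all genes, and 80% of the clock genes had M below 0 beside 57.0% of all genes. That 80% counts *Nr1d1*, at an M of −0.02, whose sign turned positive under 4 of 6 alternative computations. With so few members, these shares describe the genes and set nothing apart from the background.

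The promoter of *Per3* is shown first because it was the lowest clock gene, *Dbp* because it was the other lower one and encodes a factor that binds D-boxes, and *Cry1* because it was nearly level and holds both kinds of E-box. The sequences are those of RefSeq (GRCm38.p6, the assembly also called mm10), each from 250 bases before to 50 bases after an annotated transcription start and read 5′ to 3′ on the strand of the gene. *Per3* lies at chr4:151044616-151044915 on the minus strand, *Dbp* at chr7:45704997-45705296 on the plus strand and *Cry1* at chr10:85185005-85185304 on the minus strand. Capitals mark exact matches to any of the motifs named in the next paragraph.
Per3: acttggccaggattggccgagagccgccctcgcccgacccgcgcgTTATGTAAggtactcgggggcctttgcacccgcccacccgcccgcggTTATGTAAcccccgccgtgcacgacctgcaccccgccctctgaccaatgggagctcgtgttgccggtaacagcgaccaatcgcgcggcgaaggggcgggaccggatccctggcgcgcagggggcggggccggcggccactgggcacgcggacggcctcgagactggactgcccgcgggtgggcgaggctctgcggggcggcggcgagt
Dbp: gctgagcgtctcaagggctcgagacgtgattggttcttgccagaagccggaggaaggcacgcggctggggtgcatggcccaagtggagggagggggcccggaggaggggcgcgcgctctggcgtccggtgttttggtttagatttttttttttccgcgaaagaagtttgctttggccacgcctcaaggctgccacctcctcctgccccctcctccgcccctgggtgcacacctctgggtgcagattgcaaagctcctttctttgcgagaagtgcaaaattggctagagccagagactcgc
Cry1: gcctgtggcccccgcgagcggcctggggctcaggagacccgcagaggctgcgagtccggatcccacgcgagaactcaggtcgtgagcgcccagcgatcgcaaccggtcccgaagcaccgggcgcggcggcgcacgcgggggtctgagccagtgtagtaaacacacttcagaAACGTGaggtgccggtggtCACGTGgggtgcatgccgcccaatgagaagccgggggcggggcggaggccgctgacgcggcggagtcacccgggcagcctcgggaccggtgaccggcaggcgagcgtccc

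Exact matches were sought on both strands for the E-box (CACGTG), the E′-box (CACGTT), the D-box (TTATGTAA), the nuclear receptor half-site that REV-ERB and ROR receptors bind (AGGTCA), the cAMP response element (TGACGTCA) and the MCAT element that TEAD factors bind (CATTCC). RefSeq windows were found for 9 of the 10 clock genes, 13 windows in all, and for *Per2* none was used. *Per3* holds 2 D-boxes, from −205 to −198 and from −158 to −151 relative to its start. A D-box occurs in 0.938% of the 32851 windows of all genes, and 2 or more occur in 7 windows (0.0213%), of which the *Per3* window is one. *Cry1* holds an E′-box from −79 to −74 and an E-box from −60 to −55. An E-box also lies in one of the *Per1* windows, and an E′-box in those of *Cry2* and *Nr1d1*, where 7.15% and 4.68% of all windows hold these motifs. The half-site is in windows of *Per1*, *Arntl*, *Clock* and *Nr1d2* and in 16.3% of all windows. Some genes have several windows. Counted by gene, 18.1% of all genes hold the half-site, 8.09% the E-box and 5.44% the E′-box. The MCAT element is in the *Nr1d2* window alone of the 13 and in 14.7% of all windows, the cAMP response element in none of the 13 and in 1.79% of all. No 2 matches in these windows overlapped. The *Dbp* window holds none of these motifs, which says only that those letters are not within this window. The listed gene interval of *Dbp* begins at chr7:45705100, inside that window, so most of the window lies within the interval. Sequence farther upstream was not searched. A match describes letters and not occupancy by a factor.

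**Figure D1:**
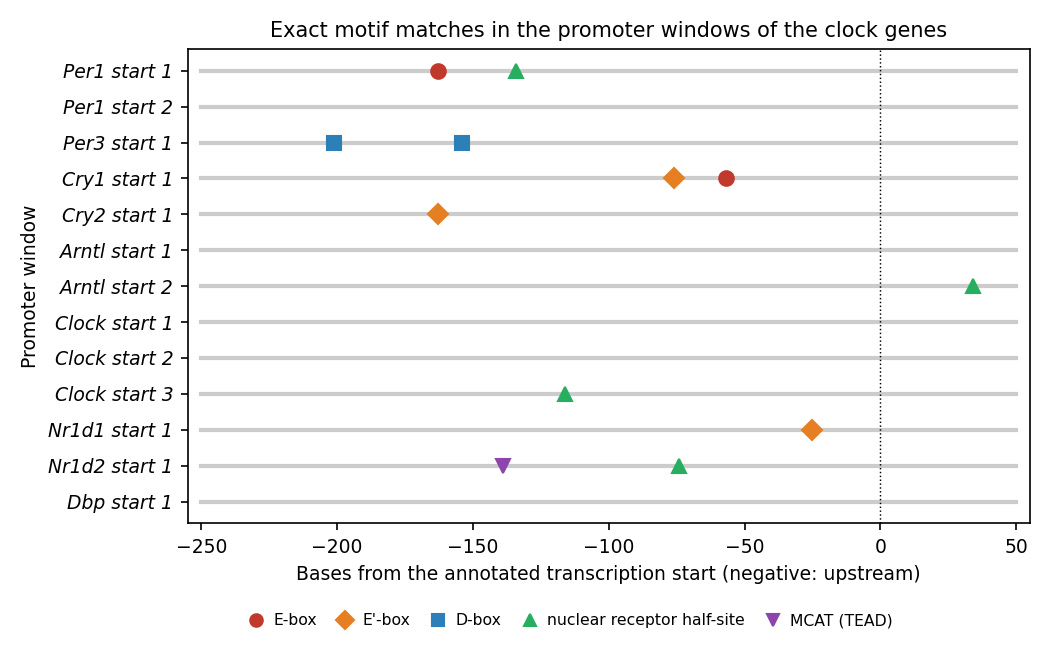
Each grey line is one RefSeq promoter window of a clock gene, drawn by distance in bases from the annotated start (dotted line), and each symbol is the centre of an exact motif match on either strand. The *Per3* window carries both D-boxes, and the *Dbp* window carries no match.

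Among the repressor arm, *Per3* stood apart from the other *Per* genes. *Per3* (NCBI gene 18628, chr4:150997018-151044707) encodes the period protein that is the least required for rhythms in mice. It had 978 reads and 2.55 TPM in siCtrl, and 445 reads and 1.24 TPM in si*Vgll3*. The M was −1.04 with a 95% counting interval of −1.20 to −0.87, and 2.99% of all genes with A > 0 had a lower M. Each such interval is the Clopper-Pearson interval of the read ratio, moved onto the TPM ratio. Reads are not independent molecules, so such intervals hold counting error alone and compare the libraries, not the conditions. *Per3* lies inside the annotated interval of *Camta1* on the same strand, with which it shares 0 exonic bases, and *Camta1* was at an M of 0.35.

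*Per1* (NCBI gene 18626), a period gene that glucocorticoids and cAMP induce directly, was at 12.6 TPM with the control siRNA and 9.93 TPM after knockdown. Its M was −0.34 (−0.41 to −0.27), short of the threshold. *Per2* (NCBI gene 18627), needed for sustained rhythms, was at 2.01 TPM and 1.69 TPM, an M of −0.25 (−0.41 to −0.09). The M of *Per3* was below that of *Per2* by a difference of −0.79 (−1.01 to −0.56) and below that of *Per1* by a difference of −0.69 (−0.87 to −0.52). The difference of *Per2* from *Per1* was 0.09 (−0.08 to 0.26), an interval that holds 0. These differences of M, and those given below, carry 95% intervals from the Poisson variance of the reads. Their gene pairs were not planned beforehand.

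The genes of the cryptochromes, which carry the repression of CLOCK and ARNTL, both had M above 0, unlike the *Per* genes. *Cry1* (NCBI gene 12952) was at 7.67 TPM with the control siRNA and 7.91 TPM after knockdown, an M of 0.04 (−0.06 to 0.15). *Cry2* (NCBI gene 12953) was at 9.98 TPM and 12.7 TPM, an M of 0.35 (0.27 to 0.42), and was the clock gene with the highest M. It did not reach the threshold for a higher gene. The non-coding *D930015M05Rik*, which shares 4.67% of the exonic bases of *Cry2* on the opposite strand, had 0 reads in both libraries. The M of *Cry2* exceeded that of *Cry1* by 0.30 (0.17 to 0.43). Summed within a library, the *Per* genes came to 17.2 TPM with the control siRNA and 12.9 TPM after knockdown, and the *Cry* genes to 17.6 TPM and 20.6 TPM. The ratio of summed *Per* to summed *Cry* TPM was thus 0.972 with the control siRNA and 0.624 after knockdown, a ratio formed after the values were seen.

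Both activator genes lay within the threshold. *Arntl* (NCBI gene 11865), a core gene whose loss alone stops behavioural rhythms in mice, was at 18.2 TPM with the control siRNA and 16.5 TPM after knockdown, an M of −0.15 (−0.22 to −0.07). *Clock* (NCBI gene 12753), its partner, had the most reads of the clock genes, 10576 with the control siRNA against 8159 after knockdown. It was at 17.1 TPM and 14.1 TPM, an M of −0.27 (−0.31 to −0.23).

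The REV-ERB receptors were the most abundant of the clock genes. *Nr1d1* (NCBI gene 217166) was at 33.7 TPM with the control siRNA and 33.2 TPM after knockdown, an M of −0.02 (−0.08 to 0.03). The sign of this small M turned positive under 4 of 6 alternative computations, so no direction is given for it. *Nr1d2* (NCBI gene 353187) was at 25.6 TPM and 21.1 TPM, an M of −0.28 (−0.33 to −0.23). The 3′ end of *Nr1d1* runs into that of *Thra*, the thyroid hormone receptor gene on the opposite strand, with 263 shared exonic bases (8.55% of those of *Nr1d1*). *Thra* was at 41.8 TPM with the control siRNA and 22.6 TPM after knockdown, an M of −0.89. The libraries were stranded, but whether strand was used in counting is not given in the sources used here, so the share of *Thra* reads in the *Nr1d1* value was not tested.

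*Dbp* (NCBI gene 13170, chr7:45705100-45710203), a PAR bZIP factor and one of the strongest rhythmic outputs of the clock in many tissues, was the other lower gene. It had 2323 reads and 21.7 TPM in siCtrl, and 1146 reads and 11.6 TPM in si*Vgll3*. The M was −0.91 (−1.01 to −0.81), and 3.99% of all genes had a lower M. It differed from the M of *Per3* by 0.13 (−0.06 to 0.32), an interval that holds 0. *Dbp* shares 539 exonic bases (18.0% of its own) with *Sphk2*, a sphingosine kinase gene on the opposite strand. *Sphk2* was at 17.1 TPM with the control siRNA and 15.2 TPM after knockdown, an M of −0.17. As for *Nr1d1*, the use of strand in counting is not given, so the share of *Sphk2* reads in the *Dbp* value was not tested. The ratio of *Dbp* to *Arntl* TPM was 1.19 with the control siRNA and 0.701 after knockdown, whereas that of *Nr1d1* to *Arntl* was 1.85 and 2.01. Neither ratio was planned beforehand.

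**Figure D2:**
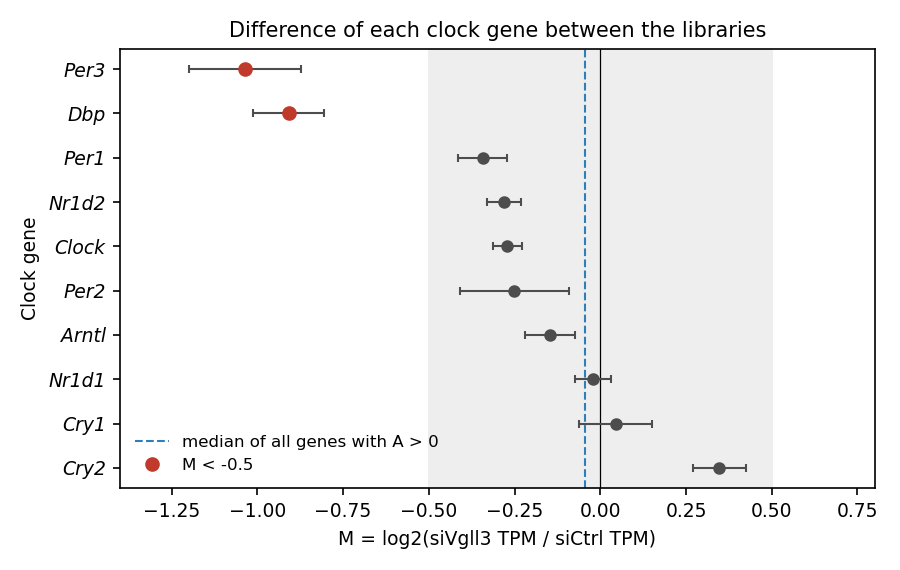
M of each clock gene (points) with its 95% counting interval (bars), ordered from lowest to highest. *Per3* and *Dbp* (red) lie wholly left of the grey band from −0.5 to 0.5, the other 8 clock genes lie within it, and the dashed line is the median of all genes, −0.05.

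By counting error alone, 7 clock genes had an interval wholly below 0, *Cry2* alone had one wholly above 0, and those of *Cry1* and *Nr1d1* held 0. The share of all genes with an interval wholly on one side of 0 was not computed, so these counts set nothing apart from the background. The whole interval lay below −0.5 for 2 clock genes, *Per3* and *Dbp*, and for 8.31% of all genes. Reads per clock gene and library ranged from 445 for *Per3* in si*Vgll3* to 10576 for *Clock* in siCtrl. The spread between cultures was not measured.

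As levels, the clock genes spanned a 16.8-fold range in siCtrl and a 26.7-fold range in si*Vgll3*. In siCtrl the order from high to low TPM was *Nr1d1*, *Nr1d2*, *Dbp*, *Arntl*, *Clock*, *Per1*, *Cry2*, *Cry1*, *Per3* and *Per2*. In si*Vgll3* it was *Nr1d1*, *Nr1d2*, *Arntl*, *Clock*, *Cry2*, *Dbp*, *Per1*, *Cry1*, *Per2* and *Per3*. Thus *Dbp* went from rank 3 to rank 6, *Cry2* from rank 7 to rank 5, and *Per3* and *Per2* exchanged the last places. No neighbours in either order had overlapping 95% Poisson counting intervals, which again leaves out the spread between cultures. For scale, the median gene with A > 0 was at 20.5 TPM with the control siRNA and 19.3 TPM after knockdown, so *Per2* and *Per3* were weakly expressed, with only 6.31% and 6.68% of genes at a lower A.

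**Figure D3:**
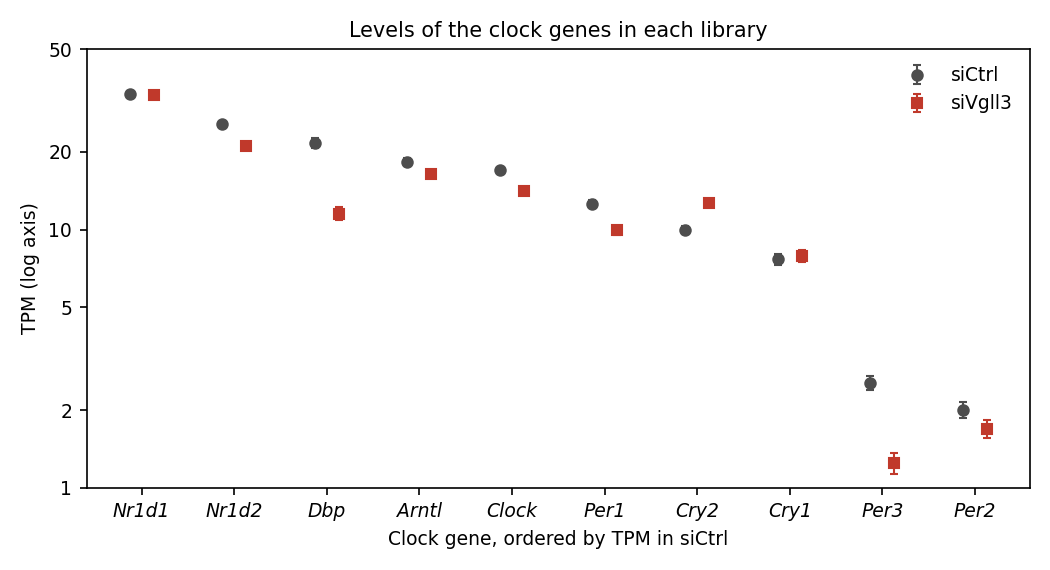
TPM of each clock gene (log axis) in siCtrl (grey circles) and si*Vgll3* (red squares), with 95% Poisson counting intervals, 1 library each. *Dbp* (21.7 against 11.6 TPM) and *Per3* (2.55 against 1.24 TPM) show the widest gaps, while the *Nr1d1* and *Cry1* symbols are nearly level.

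Other regulators of the clock were described from a list of 24 genes, of which 23 had A > 0. Among them 1 was lower and 3 were higher. The list had been shortened after its values were seen, which took 1 lower gene out of it, so its shares are not set against those of all genes. Their median M was −0.02, and 19 lay within the threshold.

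Among the ubiquitin ligase genes of the list, *Fbxl21*, an F-box gene whose protein binds cryptochromes, was higher, at 0.809 TPM and 1.49 TPM. Its M was 0.88 (0.52 to 1.25), on only 103 and 175 reads. The F-box genes that act on PER proteins were at an M of −0.23 for *Btrc* and 0.06 for *Fbxw11*. The 4 kinases of PER and CRY, *Csnk1d*, *Csnk1e*, *Gsk3b* and *Csnk2a1*, lay between −0.04 and 0.22.

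Among the transcription factors of the list, *Bhlhe41* (DEC2), an E-box repressor, was lower, with 1122 reads and 2.92 TPM in siCtrl and 517 reads and 1.45 TPM in si*Vgll3*. Its M was −1.01 (−1.16 to −0.86). A predicted transcript on the opposite strand, *Gm43909*, covers 19.0% of its exonic bases, and the share of such reads in the *Bhlhe41* value was not tested. The more abundant paralogue *Bhlhe40* (DEC1) was at 104 and 93.2 TPM, an M of −0.16. *Hlf*, a PAR bZIP factor like *Dbp*, was higher, at 0.583 TPM with the control siRNA and 1.83 TPM after knockdown, an M of 1.65 (1.42 to 1.88) on 211 and 612 reads. With 1 TPM added to both values its M was 0.84. The third PAR bZIP gene, *Tef*, was at an M of −0.14, and *Nfil3*, which represses through the same D-boxes, at 0.15. The PAR bZIP genes therefore lay on both sides of 0, and the most abundant of them, *Tef* at 30.7 and 27.8 TPM, was within the threshold.

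*Arntl2*, the paralogue of *Arntl*, was higher, at 3.68 and 5.56 TPM, an M of 0.60 (0.44 to 0.75), while *Npas2*, that of *Clock*, was at −0.04. Of the ROR receptor genes, which act against the REV-ERB receptors, *Rora* was at an M of −0.12 and *Rorb* had 0 reads in both libraries. The E-box repressor *Ciart* was at −0.26 and the CLOCK inhibitor *Cipc* at −0.08. *Nono* and *Sfpq*, RNA-binding proteins of the PER complex and of paraspeckles, were at 374 and 377 TPM and at 186 and 167 TPM, an M of 0.01 (−0.01 to 0.03) and of −0.15 (−0.17 to −0.13). *Wdr5* was at 0.03 and *Timeless* at 0.00. The REV-ERB corepressor genes *Ncor1* and *Hdac3* were at −0.02 and −0.05.

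**Figure D4:**
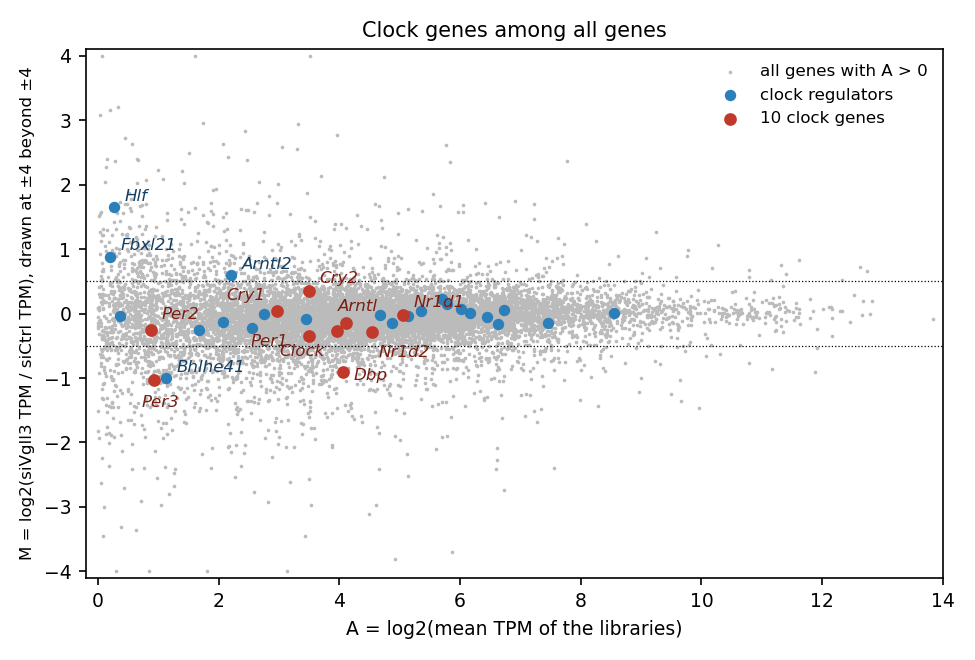
M against A for all genes with A > 0 (grey), the 23 clock regulators with A > 0 (blue) and the 10 clock genes (red), with dotted lines at the thresholds of −0.5 and 0.5. *Per3* and *Dbp* are the only clock genes beyond a line, and *Hlf* is the highest of the marked genes, at 1.65.

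Known clock-controlled outputs gave 1 lower and 1 higher gene among 8 with A > 0, 12.5% each, beside 11.4% and 5.73% of all genes. *Klf15*, a transcription factor of heart and liver metabolism, was at 5.24 TPM with the control siRNA and 2.07 TPM after knockdown, an M of −1.34 (−1.54 to −1.14). *Noct*, a rhythmic nocturnin gene, was at 7.48 and 11.7 TPM, an M of 0.65 (0.55 to 0.74). Below the threshold, *Nampt*, of NAD synthesis, was at −0.45 and *Klf9* at −0.40. The remaining outputs, *Wee1*, *Usp2*, *Klf10* and *Por*, lay between −0.11 and 0.17. The median of the list was −0.04, but it was 0.01 with CPM and 0.03 with A > 2, so no direction is read from it. With A > 2, 0 of 7 outputs were lower, since *Klf15* is removed, beside 9.34% of all genes.

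**Figure D5:**
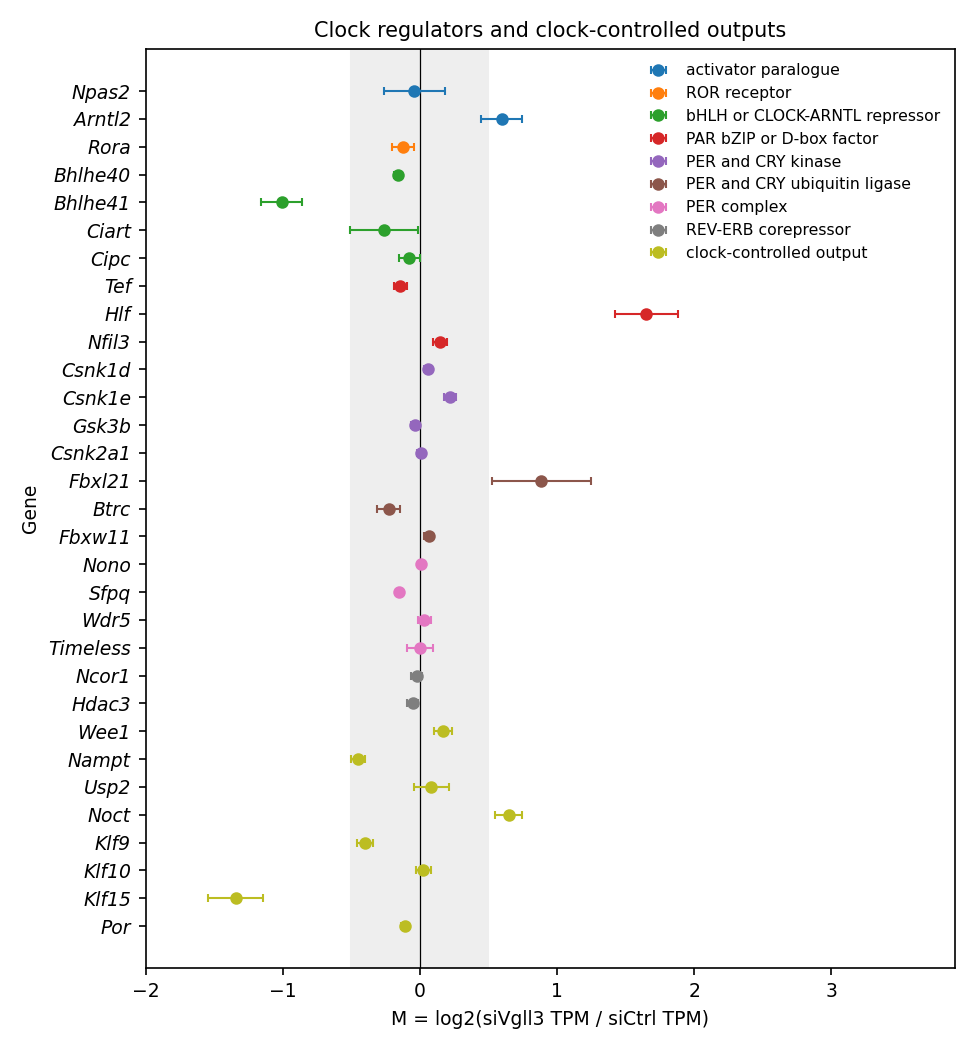
M (points) with 95% counting intervals (bars) of the clock regulators and outputs with A > 0, coloured by role, with the band from −0.5 to 0.5 in grey. Most of the genes lie within the band, and *Bhlhe41* and *Klf15* lie left of it while *Hlf* lies farthest to the right, at 1.65.

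Genes induced by the signals that set the clock of cultured cells went both ways. Of 7 glucocorticoid-induced genes with A > 0, 2 were lower, *Tsc22d3* (GILZ) at −0.58 and the metallothionein *Mt2* at −0.75. Another 2 were higher, the kinase gene *Sgk1*, from 136 to 288 TPM (M of 1.08), and the phosphatase gene *Dusp1* at 0.69. Each pair is 28.6% of the 7, beside 11.4% lower and 5.73% higher genes over all. Scaling by CPM, TMM or DESeq2 size factors, or centring, gave 3 higher genes of the 7, with *Errfi1* (M of 0.47) as the added one. Under these settings 6.16% to 6.51% of all genes were higher. The counting interval of *Tsc22d3*, −0.657 to −0.498, holds the threshold. Where the whole interval had to lie below −0.5, 1 of the 7 was lower, beside 8.31% of all genes. *Fkbp5*, a direct target of the glucocorticoid receptor, was at −0.23. Of 7 serum- or cAMP-induced early genes, *Fos* at 0.68 and *Crem* at 0.90 were higher. *Egr1*, at −0.52, was lower, but 4 of 6 alternative computations placed it within the threshold. These are 14.3% lower and 28.6% higher of the 7. The medians were 0.02 for the glucocorticoid list and 0.24 for the serum and cAMP list.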

How the data were processed

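RNA-seq libraries of siCtrl- and si*Vgll3*-transfected cardiac myofibroblasts were compared, 1 per condition. Per the paper's methods and the labels, the authors prepared stranded mRNA libraries, used Trimmomatic for trimming and HISAT2 for alignment to mm10, and quantified known genes with StringTie. Versions are not given in the sources used here. The authors deposited raw read counts per gene and, in separate tables, TPM per gene, which corrects for length and library size but assumes that total mRNA output is alike in both cultures.

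M and A were computed from TPM with nothing added (Python 3.11.15, scipy 1.17.1). Clopper-Pearson and Poisson intervals at the 95% level came from the read counts, and the computation was tested on simulated data. edgeR 4.0.16 and DESeq2 1.42.0 supplied scaling factors only, since no fit with replicates was possible. Alternatives were CPM, TMM and size-factor scaling, centring, added TPM, other filters on A or reads and other thresholds. All 10 members, the regulators and outputs past a threshold, the PER complex genes, the resetting genes past a threshold and *Vgll3* were named by rule, and other genes after their values were seen. Of the clock regulators first listed, 2, of which 1 was past the lower threshold, are not reported here and were left out of the list's counts, median and plots. The members and lists were chosen with earlier results of these data known. Gene overlaps came from GENCODE vM21 and promoters from RefSeq. With a single difference per gene, no genes were sought for a similar pattern.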

Additional observations from a re-analysis of the deposited data

How the results depend on the processing

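No paired analysis was possible because the conditions have 1 library each. Under the 11 alternatives, of 62 recomputed counts and medians of the clock genes and clock regulators, 6 counts moved beyond 1.5 times. The median M of the clock regulators, −0.02, turned to 0.01 with CPM, 0.01 with TMM factors, 0.00 with size factors and 0.02 with centring, so no direction is read from it. With A > 2, which removes *Per2* and *Per3*, 1 of 8 clock genes was lower instead of 2 of 10, beside 9.34% of all genes. With a threshold of 1 on M, 1 of 10 clock genes was lower, beside 3.27% of all genes. With A > 2, 0 of 18 clock regulators were lower instead of 1 of 23, since *Bhlhe41* is removed, and 1 was higher instead of 3. The number of higher regulators was also 1 with 1 TPM added and 1 with a threshold of 1. The median M of the clock genes stayed between −0.26 and −0.21. *Per3* ranged from −0.99 to −0.66 and *Dbp* from −0.90 to −0.85 over 6 alternative values of M, below −0.5 each time. Adding 1 TPM moved *Per3* most, to −0.66. CPM in place of TPM raised M of every clock gene by 0.05 to 0.06. With 1 TPM added, *Hlf* was at 0.84, and *Arntl2* at 0.49 and *Fbxl21* at 0.46 were within the threshold. Over all genes, lower genes made up 66.6% of those past a threshold and 60.5% after subtracting the all-gene median from M. Alternatives for the outputs, the resetting genes and the regulators named singly were chosen after seeing the data. Among the named genes past a threshold, depth limits *Fbxl21* most, with 103 and 175 reads. Intervals cover counting error and not the spread between cultures.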
